A study of Mus musculus with 5 samples.

Results

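Heat shock, unfolded protein response and integrated stress response genes were examined in mouse iridocorneal angle tissue, the ring at the base of the iris where aqueous humor drains from the eye. The 30 genes were taken by name, from a fixed list of chaperones and stress response genes, out of 56941 gene identifiers in the count table by a rule that uses no measured value. The list itself was chosen with earlier results of these data known. They comprise 11 chaperones and folding enzymes of the endoplasmic reticulum (ER), the pair Xbp1 and Herpud1, 6 genes of the integrated stress response, 9 cytosolic heat shock proteins and cochaperones, and 2 mitochondrial chaperonins. All 30 had enough counts to be tested.

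RNA was sequenced from 3 pools of DBA/2J tissue and 2 pools of Gpnmb+ tissue, all labelled as from untreated male and female mice of 12 months. DBA/2J mice carry a loss-of-function allele of Gpnmb, which codes for a glycoprotein of melanosomes and macrophages, together with the b allele of Tyrp1, and they develop pigment dispersion and glaucoma. Gpnmb+ mice are a DBA/2J substrain with a working Gpnmb allele that keep the b allele of Tyrp1, so the Tyrp1 defect is common to both groups. Each pool is stated to hold angles from 3 mice, although the library labels of the Gpnmb+ pools name 2 animals each. With 3 pools against 2, an exact 2-sided rank test of a single gene cannot give a p below 0.2. The p-values below therefore come from a fit across all tested genes. They set the genotype difference against the spread between pools, not between single mice.

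Cells answer misfolded protein with programs that differ by compartment. In the ER, the sensors IRE1, PERK and ATF6 start the unfolded protein response, in which the spliced form of XBP1 and cleaved ATF6 raise chaperone, folding and degradation genes. PERK and related kinases phosphorylate the initiation factor eIF2, which slows translation and favors ATF4, the activator of amino acid and stress genes that defines the integrated stress response. In the cytosol, heat shock factor HSF1 raises HSP70 and HSP90 family chaperones. Secretory cells of the outflow pathway make large amounts of extracellular matrix, and ER stress in them has been studied in glaucoma.

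Several of the promoters hold letters of known response elements of these programs. The sequences below are short stretches around such matches within 250 bases before the annotated transcription start. They were read from the GRCm39 reference genome, which is of another strain than DBA/2J, and each is written along the strand of its gene with the match in capitals and 5 flanking bases on either side. The first set shows the ER stress response element (ERSE), searched on both strands as CCAAT, 9 bases of any kind and CCACG.
Hspa5, chr2:34662032-34662060, plus strand: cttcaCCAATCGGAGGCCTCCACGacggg
Hsp90b1, chr10:86541497-86541525, minus strand: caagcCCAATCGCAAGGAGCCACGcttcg
Hsp90b1, chr10:86541392-86541420, minus strand: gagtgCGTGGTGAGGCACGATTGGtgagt
Calr, chr8:85573699-85573727, minus strand: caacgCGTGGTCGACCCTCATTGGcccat
Canx, chr11:50216622-50216650, minus strand: attgaCCAATCACCACGCTCCACGaagaa
Pdia6, chr12:17316487-17316515, plus strand: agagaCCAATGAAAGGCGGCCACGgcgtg
Creld2, chr15:88703718-88703746, plus strand: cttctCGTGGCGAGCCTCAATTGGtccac
This exact pattern was present in 19 of 15906 promoters of tested protein-coding genes (0.119%), and 6 of the 11 ER chaperone genes were among those 19. In Calr, Creld2 and the second Hsp90b1 site the match is in reverse orientation, so the capitals begin with CGTGG and end with ATTGG.

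The second set shows ERSE-II, searched as ATTGG, 1 base and CCACG, and the ATF4-type element (CARE), searched as TGATG, 1 base and AA, again on both strands. They are shown because Herpud1, Ddit3 and Chac1 are known targets of ATF4 or of the ER stress factors.
Manf, chr9:106769233-106769253, minus strand, ERSE-II: gggcaCGTGGACCAATgagga
Herpud1, chr8:95113000-95113020, plus strand, ERSE-II: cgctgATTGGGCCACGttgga
Herpud1, chr8:95112940-95112957, plus strand, CARE: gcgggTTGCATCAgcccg
Ddit3, chr10:127126356-127126373, plus strand, CARE: aaacaTTGCATCAtcccc
Chac1, chr2:119181525-119181542, plus strand, CARE: tgccgTTGCATCActcct
ERSE-II was found in 10 promoters (0.0629%) and CARE in 356 (2.24%). The 3 CARE matches share the same 8 letters, the reverse complement of the searched pattern. The core of the unfolded protein response element, TGACGTG, was found in 286 promoters (1.8%), and among the 30 genes only in that of Hspa5, apart from its ERSE.

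The heat shock element was searched as GAA, 2 bases, TTC, 2 bases and GAA, or its reverse complement. It was present in 53 promoters (0.333%) and, among the 30 genes, in that of Hspd1 and Hspe1, which are transcribed in opposite directions from 1 shared promoter, where 2 matches overlap.
Hspe1, chr1:55127213-55127235, plus strand: gtccgTTCTAGAACCTTCcggaa
Hspe1, chr1:55127218-55127240, plus strand: ttctaGAACCTTCCGGAAggccc
None of the 9 cytosolic heat shock genes held these exact letters in the window, which describes the window searched and not the binding of HSF1. All of these matches describe sequence alone.

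The libraries held 43900661 to 49837758 counts, and Gpnmb itself, at 43.6 to 52.0 CPM in DBA/2J and 2260 to 2555 CPM in Gpnmb+, followed the genotype labels in every pool. Levels are given as CPM, counts per 1000000 counts of a library after scaling between libraries with the TMM method of edgeR. Markers of the labelled tissue, 6 genes of trabecular meshwork and fibroblasts such as Myoc, Mgp and Dcn, were present in every pool with a summed level of 7125 to 7666 CPM in DBA/2J and 6116 to 6959 CPM in Gpnmb+. The higher DBA/2J sum was carried by Chil1, at a mean of 3454 against 1532 CPM, while Myoc (233 against 485 CPM) and Dcn (2181 against 2956 CPM) were lower in every DBA/2J pool. None of these 3 passed edgeR's test, with adjusted p-values of 0.103, 0.165 and 0.185, and DESeq2 gave 0.000055, 0.00793 and 0.00643. Some other material differed between the genotypes without overlap: 5 nonpigmented ciliary epithelium markers summed to 560 to 688 CPM in DBA/2J and 395 to 453 CPM in Gpnmb+, 5 Schwann cell markers to 141 to 186 and 218 to 263 CPM, and 6 B and plasma cell markers to 42.7 to 81.2 and 118 to 138 CPM, with Mzb1 at 0 in 1 pool of each genotype. The sum of 6 lens markers was low in every pool but did not overlap either, at 5.78 to 7.89 and 3.23 to 5.52 CPM, with Mip at 0 in 1 pool of each genotype. The 4 photoreceptor markers overlapped between genotypes, with Gpnmb+ pool 2 at 1669 CPM and the other pools at 306 to 755 CPM. Sums of 5 corneal and conjunctival epithelium markers overlapped too, at 4302 to 7512 and 5751 to 8297 CPM. Of these, 3 were fitted higher in DBA/2J, while Krt12 stood at 254, 116 and 9.44 CPM against 1702 and 554 CPM (edgeR adjusted p = 0.27). All 6 skeletal muscle markers were fitted higher in DBA/2J, none past edgeR's test, with sums overlapping at 123 to 332 and 74.4 to 129 CPM. Xist stood at 0 to 54.2 CPM in DBA/2J and 155 to 187 CPM in Gpnmb+, and Ddx3y at 35.1 to 97.1 and 0 to 0.0818 CPM, so sex and genotype cannot be told apart in these pools. Of 4 Y-linked genes none exceeded 4 counts in a Gpnmb+ pool, which goes against the labelled mix of sexes there, and in DBA/2J pool 2 Xist had 0 counts. The part of these materials in the chaperone levels was not tested. In bulk tissue, fewer cells of a type and less RNA per cell cannot be told apart either.

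DBA/2J pool 1 stood apart from the other libraries in its immediate early genes. The summed level of 9 of them, among them Fos, Egr1, Junb and Nr4a1, was 2097 CPM in that pool, 417 and 475 CPM in DBA/2J pools 2 and 3, and 311 and 443 CPM in the Gpnmb+ pools. All 9 were highest there, at a median of 3.88 times the mean of DBA/2J pools 2 and 3. Among the 30 chaperone and stress genes the same ratio had a median of 1.15, was above 1 for 25 genes, and ranged from 0.631 for Chac1 to 2.07 for Asns. Over all tested genes it was above 1 for 46.1%. Because of this, the gene groups, the further pathway genes as 1 set and 1 of their lists are also given without DBA/2J pool 1. Beyond those values, the part of this pool's difference in the results was not tested.

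**Figure D1:**
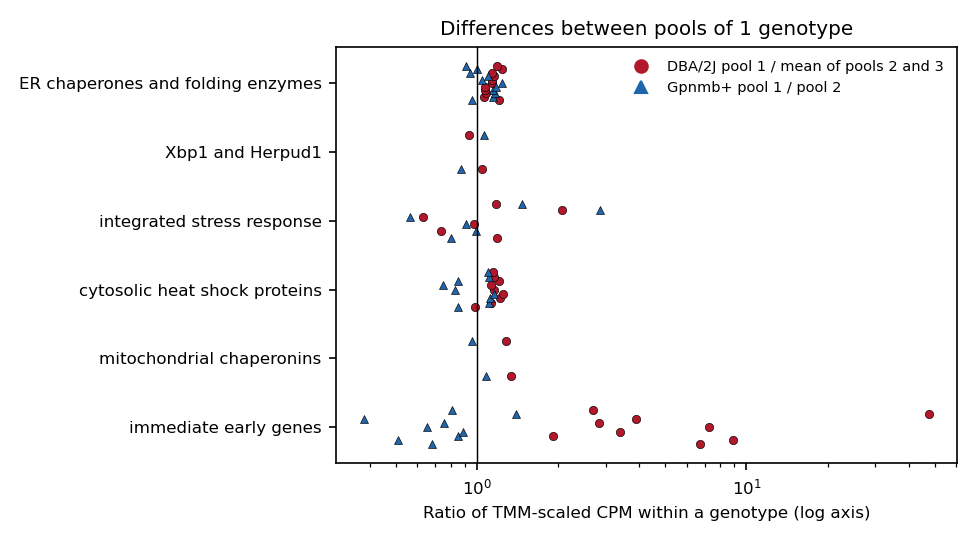
Ratios between pools of the same genotype for each gene, on a log axis. Red circles give DBA/2J pool 1 over the mean of DBA/2J pools 2 and 3, blue triangles give Gpnmb+ pool 1 over pool 2, and rows are the gene groups. The 9 immediate early genes lie at 1.92 to 47.5 for the DBA/2J ratio, the 11 ER chaperones at 1.06 to 1.24, and the integrated stress response genes spread on both sides of 1 in both genotypes.

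No chaperone or stress response gene in the list differed between the genotypes past the threshold, an adjusted p of at most 0.05 and a change of at least 1.5-fold. Of 30 genes, 0 were called by edgeR, where 0.796% of the 19713 tested genes were called. The count was also 0 by DESeq2, which called 4.7% of all genes with the fold minimum and 6.96% without it, and 0 by limma-voom. The adjusted p-values of edgeR ran from 0.224 for Ddit3 to 0.968 for Xbp1. At an unadjusted p of at most 0.05, 6 of the 30 passed, against 15.9% of all tested genes, a share near the background. The pools of the genotypes did not overlap for 12 of the 30, with 34.5% of all tested genes doing so, also near the background.

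The intervals limit how large a difference could have gone unseen. For 19 of the 30 genes the whole 95% interval of the fitted difference lay within 1.5-fold in either direction, as it did for 42.6% of all tested genes. Among the other 11 were Asns, Chac1, Ddit3, Trib3 and Atf4, that is 5 of the 6 genes of the integrated stress response, for which a change of more than 1.5-fold is inside the interval. The fitted log2 fold change, DBA/2J minus Gpnmb+, was above 0 for 18 genes and below 0 for 12, while 47.4% of all tested genes were above 0. The median over the 30 was 0.12, with a median of -0.02 over all tested genes, and it was 0.04 without DBA/2J pool 1.

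**Figure D2:**
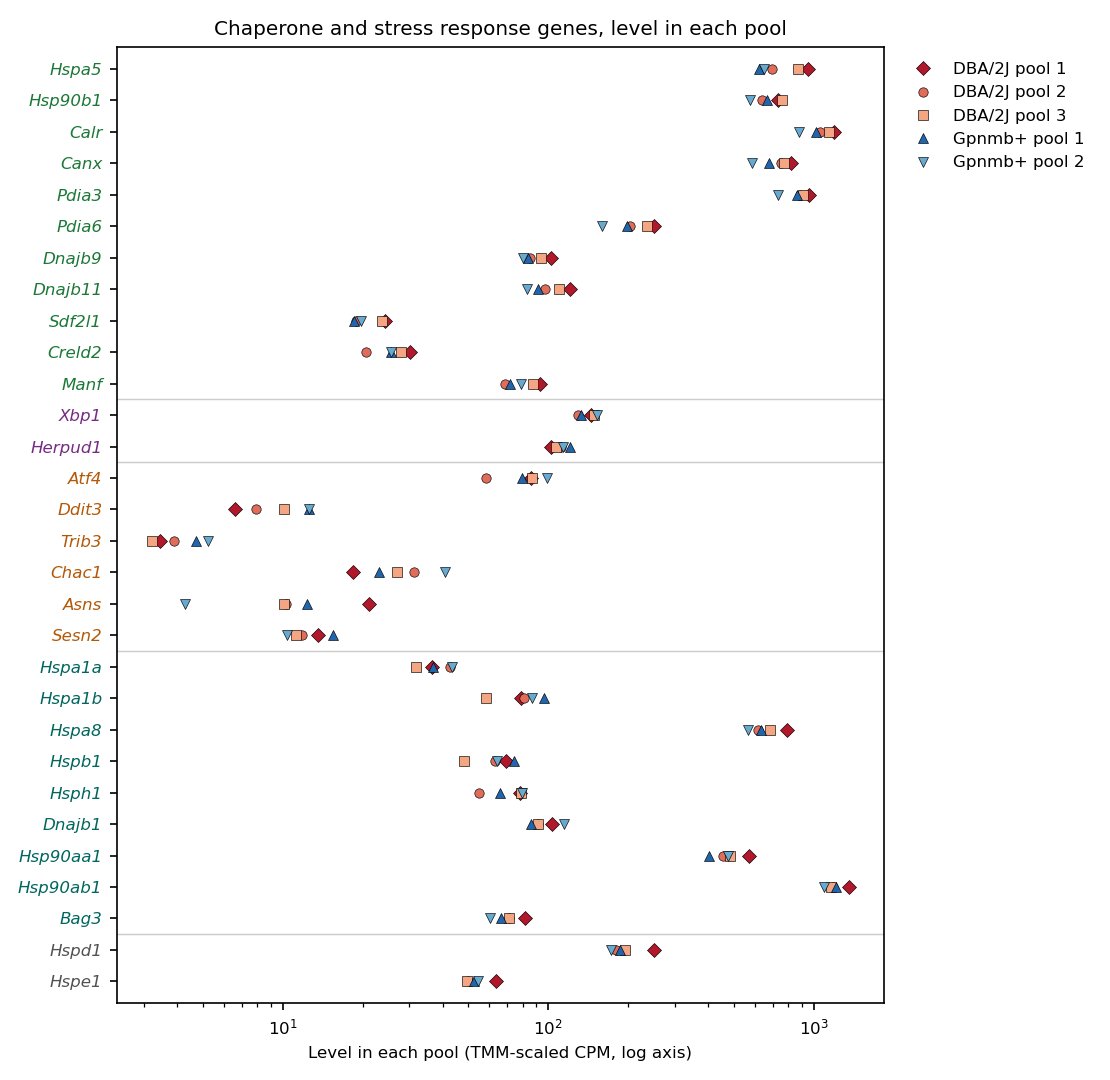
Level of each of the 30 genes in each of the 5 pools, in TMM-scaled CPM on a log axis, with DBA/2J pools in reds and Gpnmb+ pools in blues, and horizontal lines between the gene groups. The values span 3.21 to 1356 CPM, and for most genes the pools of both genotypes lie within or next to each other. The points of Asns are the most spread, from 4.29 to 21.1 CPM.

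The ER chaperones had fitted values on the DBA/2J side of 0 throughout, each small and none past the test. All 11 had a fitted log2 fold change above 0, from 0.03 for Creld2 to 0.40 for Hspa5, with a median of 0.22. Summed over the 11, the DBA/2J pools stood at 5283, 4528 and 5044 CPM in the order of their numbers and the Gpnmb+ pools at 4344 and 3875 CPM, without overlap. DBA/2J pool 1 was the highest of the 5 pools for 10 of the 11 genes, and DBA/2J pool 2 the lowest DBA/2J pool for all 11. Without pool 1, 10 of 11 stayed above 0 with a median of 0.17, and with library size as the only scaling 10 of 11 did so with a median of 0.18, Creld2 being the exception both times.

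Hspa5 (BiP), the HSP70 of the ER lumen and the regulator of the stress sensors, was at 951, 694 and 875 CPM in DBA/2J and at 624 and 652 CPM in Gpnmb+. Every DBA/2J pool was above both Gpnmb+ pools, the lowest by a narrow gap. The fitted log2 fold change was 0.40 ± 0.15 (SE; n = 3 and 2), with a 95% interval of 0.02 to 0.77 and an edgeR adjusted p of 0.289. It was 0.30 without DBA/2J pool 1. The annotation places 44.2% of the exon bases of Hspa5 over Rabepk on the opposite strand, and Rabepk itself was at 10.3 to 12.7 CPM in all pools.

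Hsp90b1 (GRP94), the HSP90 of the ER, stood at 736, 636 and 757 CPM in DBA/2J and 665 and 577 CPM in Gpnmb+, so its groups overlapped at DBA/2J pool 2. Its log2 fold change was 0.19 ± 0.12 (edgeR adjusted p = 0.504).

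Calr and Canx form the lectin cycle that holds newly made glycoproteins until they fold. Calr, the soluble lectin, was at 1192, 1058 and 1143 CPM in DBA/2J and 1022 and 877 CPM in Gpnmb+. Canx, its membrane-bound counterpart, was at 820, 753 and 774 CPM and at 676 and 586 CPM. Both sets of pools were apart, that of Canx by more than that of Calr. Canx had a log2 fold change of 0.31 ± 0.11 with an interval of 0.05 to 0.58 (edgeR adjusted p = 0.255), and Calr one of 0.25 ± 0.12 (adjusted p = 0.372).

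The disulfide isomerases Pdia3, which works with the lectins, and Pdia6, a partner of BiP, form and rearrange disulfide bonds. Pdia3 was at 963.1, 891.5 and 914.8 CPM in DBA/2J and 868.4 and 735.7 CPM in Gpnmb+. Pdia6 was at 250, 204 and 236 CPM and at 198 and 160 CPM. The lowest DBA/2J pool was above the highest Gpnmb+ pool for both, by a small margin each. Their log2 fold changes were 0.20 ± 0.11 (edgeR adjusted p = 0.447) and 0.36 ± 0.14 (adjusted p = 0.282), and the interval of Pdia6, 0.03 to 0.70, includes a change over 1.5-fold.

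Dnajb9 and Dnajb11 are J-domain cochaperones that hand substrates to BiP. Dnajb11 was at 121, 97.0 and 110 CPM in DBA/2J and 91.3 and 83.1 CPM in Gpnmb+, with a log2 fold change of 0.33 ± 0.12 (edgeR adjusted p = 0.260). Dnajb9, a strong target of XBP1 in many cells, was at 102, 85.2 and 93.9 CPM and at 83.8 and 80.3 CPM, with a log2 fold change of 0.19 ± 0.10 (adjusted p = 0.415). The groups of both were separate, those of Dnajb9 by a narrow gap, and both intervals lay within or close to 1.5-fold.

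Sdf2l1, Creld2 and Manf are small targets of ER stress. Sdf2l1, a companion of the BiP complex, was at 24.2, 18.9 and 23.7 CPM in DBA/2J and 18.6 and 19.7 CPM in Gpnmb+. Creld2, a secreted ER stress protein, was at 30.1, 20.5 and 28.0 CPM and at 25.6 and 25.6 CPM, its Gpnmb+ pools lying inside the DBA/2J range. Manf, a secreted factor of ER-stressed cells, was at 93.0, 69.0 and 87.8 CPM and at 71.8 and 78.7 CPM. None of the 3 had separate groups, and in each of them DBA/2J pool 2 was at or below the Gpnmb+ pools or between them. Their log2 fold changes were 0.22 ± 0.14, 0.03 ± 0.17 and 0.15 ± 0.14, with edgeR adjusted p-values of 0.501, 0.948 and 0.671. For Manf, 32.6% of annotated exon bases are shared with Rbm15b on the same strand.

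Xbp1 and Herpud1 both had an interval within 1.5-fold, and without DBA/2J pool 1 both fitted values were below 0, with a median of -0.07. Xbp1, the transcription factor that IRE1 activates by splicing, was at 145, 130 and 149 CPM in DBA/2J and 133 and 153 CPM in Gpnmb+, with a log2 fold change of -0.01 ± 0.11 and an interval of -0.27 to 0.24. Gene counts do not separate its spliced from its unspliced form. Herpud1, a membrane protein of ER-associated degradation whose promoter holds both ERSE-II and CARE, was at 102, 112 and 107 CPM in DBA/2J and at 121 and 114 CPM in Gpnmb+. Each of its DBA/2J pools was below both Gpnmb+ pools, by a log2 fold change of -0.13 ± 0.08 (edgeR adjusted p = 0.482), the smallest standard error among the 30 genes.

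Of the gene groups, the integrated stress response genes varied most between pools. Their median biological coefficient of variation (the spread beyond counting error) was 19%, against 13.4% over the 30 and 17.8% over all tested genes. For 3 of the 6 it was above the value typical of genes at their level, where 22.8% of all tested genes were. The fitted log2 fold change was below 0 for 5 of the 6, with a median of -0.27. Without DBA/2J pool 1 the count was again 5 of 6, with a median of -0.23. Together they reached 149, 124 and 148 CPM in DBA/2J and 148 and 173 CPM in Gpnmb+, which overlaps. None passed the test. Atf4, the transcription factor of the response, which is set largely by translation and not by its RNA, was at 86.0, 58.5 and 86.5 CPM in DBA/2J and 79.9 and 99.3 CPM in Gpnmb+. Its log2 fold change was -0.22 ± 0.20 (edgeR adjusted p = 0.643), and DBA/2J pool 2 was the lowest pool.

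Ddit3 (CHOP), a transcription factor induced by prolonged ER stress and linked to cell death, had the smallest adjusted p of the 30. It was at 6.61, 7.90 and 10.1 CPM in DBA/2J (read counts 294, 339 and 452) and at 12.5 and 12.6 CPM in Gpnmb+ (633 and 616). All DBA/2J pools were below both Gpnmb+ pools, with DBA/2J pool 1 the lowest. The log2 fold change was -0.61 ± 0.20 with an interval of -1.09 to -0.13, a fold of 0.655, and the edgeR adjusted p was 0.224. Without DBA/2J pool 1 it was -0.47 (adjusted p = 0.373). The annotation places 64.1% of the exon bases of Ddit3 over Mars1 on the opposite strand. Mars1, a tRNA synthetase gene, was at 31.4 to 42.3 CPM in DBA/2J and 25.7 to 27.6 CPM in Gpnmb+, the opposite direction, and the sources used here do not say whether reads were counted by strand. A second entry named Ddit3 in the annotation shares 105 exon bases with the first on the same strand, and its counts were not examined.

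Trib3, a pseudokinase induced by ATF4 and CHOP, was at 3.46, 3.89 and 3.21 CPM in DBA/2J (read counts 154, 167 and 143) and 4.73 and 5.21 CPM in Gpnmb+ (240 and 255). Its groups were separate as well, with a log2 fold change of -0.50 ± 0.17, an interval of -0.92 to -0.07 and an edgeR adjusted p of 0.255. Leaving out DBA/2J pool 1 gave -0.49. Chac1, which degrades glutathione and whose promoter holds the same CARE letters as that of Ddit3, was at 18.4, 31.3 and 26.9 CPM and at 23.0 and 40.8 CPM. Its pools overlapped, and the log2 fold change of -0.32 ± 0.30 (adjusted p = 0.661) was positive, 0.15, without Gpnmb+ pool 2.

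Asns, the asparagine synthetase, was the only gene of this group above 0 and the most scattered of all 30. It was at 21.1, 10.3 and 10.1 CPM in DBA/2J and 12.3 and 4.29 CPM in Gpnmb+. Both extremes were single pools, DBA/2J pool 1 and Gpnmb+ pool 2, a 4.91-fold span. The log2 fold change of 0.74 ± 0.53 had an interval of -0.55 to 2.03 (edgeR adjusted p = 0.550), was 0.30 without DBA/2J pool 1 and ranged from 0.17 to 1.69 over all omissions of 1 pool. Its biological coefficient of variation was 40.1%, where 20.2% is typical of genes at its level. Sesn2, a sestrin of nutrient and oxidative stress, was at 13.6, 11.8 and 11.2 CPM in DBA/2J and 15.4 and 10.4 CPM in Gpnmb+, with a log2 fold change of -0.08 ± 0.19 (adjusted p = 0.882), and its Gpnmb+ pools lay on either side of all DBA/2J pools.

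**Figure D3:**
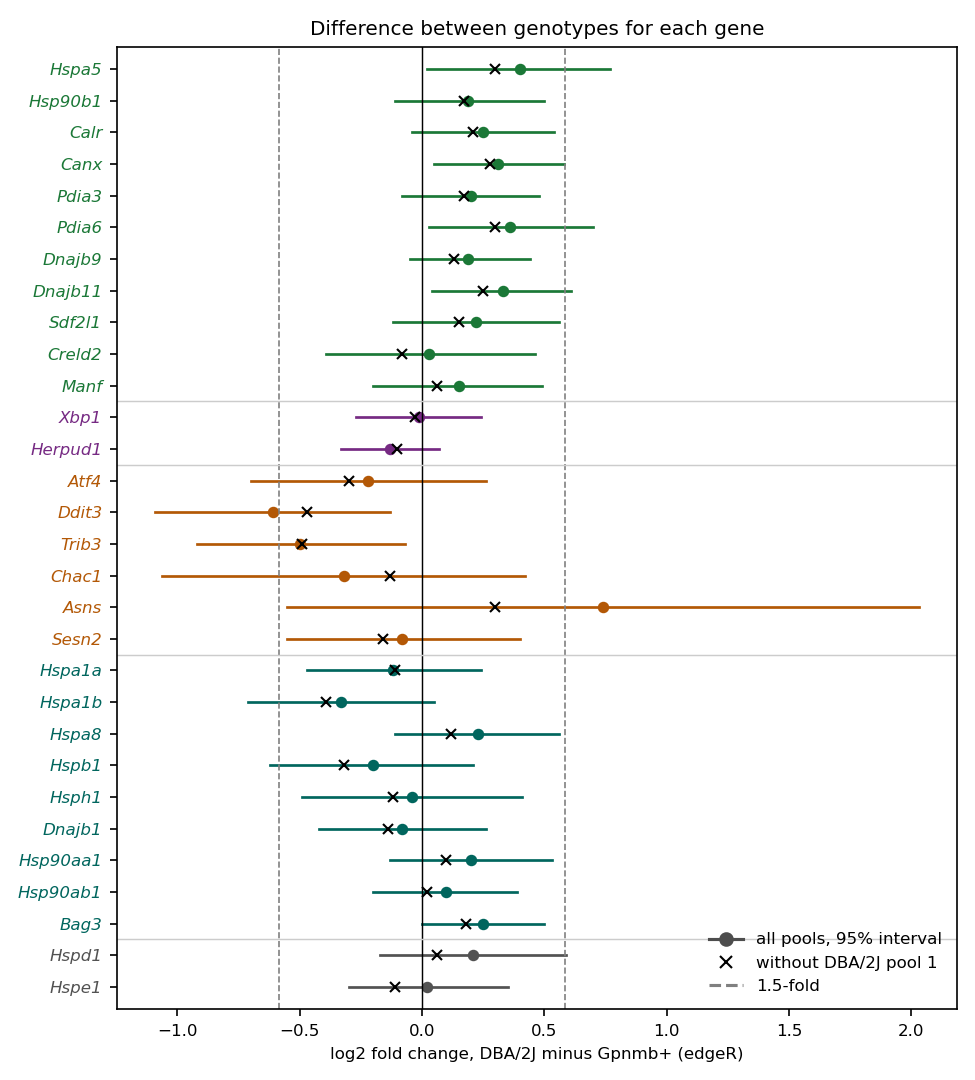
Fitted log2 fold change of each gene, DBA/2J minus Gpnmb+, as circles with the 95% interval of the edgeR fit; crosses give the value without DBA/2J pool 1 and dashed lines mark 1.5-fold in each direction. The 11 ER chaperones at the top lie between 0.03 and 0.40 and all but 1 of their crosses stay above 0, most integrated stress response genes lie to the left of 0, and Asns has the widest interval.

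The cytosolic heat shock proteins lay on both sides of 0, with 4 of 9 above and 5 below and a median log2 fold change of -0.04. Together the 9 reached 3168, 2662 and 2712 CPM in DBA/2J and 2673 and 2584 CPM in Gpnmb+, and it was DBA/2J pool 1 that stood above the rest. The interval lay within 1.5-fold for 7 of the 9. Without pool 1 the split was again 4 and 5, with a median of -0.11.

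The HSP70 family holds both the inducible and the constitutive cytosolic forms. Hspa1a and Hspa1b, neighboring inducible genes that code for nearly the same protein, were at 36.6, 42.5 and 31.8 CPM in DBA/2J against 36.9 and 43.4 CPM in Gpnmb+, and at 78.7, 80.7 and 58.3 CPM against 96.0 and 86.6 CPM. All DBA/2J pools of Hspa1b were below both Gpnmb+ pools, while those of Hspa1a overlapped them. The log2 fold change of Hspa1b was -0.33 ± 0.16 with an interval of -0.71 to 0.05 (edgeR adjusted p = 0.369), and that of Hspa1a was -0.12 ± 0.15 (adjusted p = 0.743). Since 48.6% of the 100-base windows of Hspa1a and 49.9% of those of Hspa1b are found identically in another gene, and only reads with a single genomic position were counted, the values of this pair are uncertain. The ratio of Hspa1b to Hspa1a counts was 2.15, 1.9 and 1.83 in DBA/2J and 2.6 and 2 in Gpnmb+.

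Hspa8, the constitutive HSP70 of all cells, was at 795, 618 and 686 CPM in DBA/2J and 631 and 565 CPM in Gpnmb+, with DBA/2J pool 1 well above the other 4 pools and a log2 fold change of 0.23 ± 0.14 (edgeR adjusted p = 0.475). Of its windows, 62.8% recur in 7 other genes, the one sharing most being the processed pseudogene Gm15459. Hsph1, the HSP110 exchange factor that resets HSP70, was at 78.1, 55.0 and 79.2 CPM and at 65.8 and 79.7 CPM, and Dnajb1, the main J-domain partner of inducible HSP70, was at 103, 91.9 and 91.5 CPM and at 86.4 and 115 CPM. The groups of both overlapped, with log2 fold changes of -0.04 ± 0.18 and -0.08 ± 0.14. Hspb1 (HSP27 family, HSP25 in mice), a small heat shock protein that protects the actin skeleton, was at 69.6, 63.1 and 48.0 CPM in DBA/2J and 74.6 and 64.1 CPM in Gpnmb+, with a log2 fold change of -0.20 ± 0.17, and 55.4% of its windows are shared with a pseudogene.

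Of the cytosolic HSP90 pair, Hsp90ab1, the constitutive form, was at 1356, 1184 and 1160 CPM in DBA/2J and 1213 and 1095 CPM in Gpnmb+. Hsp90aa1, the stress-inducible form, was at 569, 455 and 486 CPM and at 403 and 475 CPM. The groups overlapped for both, and DBA/2J pool 1 was the highest pool in each. Their log2 fold changes were 0.10 ± 0.12 (edgeR adjusted p = 0.752) and 0.20 ± 0.14 (adjusted p = 0.531). Of the windows of Hsp90aa1, 44.1% recur in other genes. Bag3, the cochaperone that sends HSP70 clients to autophagy, was the cytosolic gene whose DBA/2J pools all exceeded the Gpnmb+ pools, at 82.1, 71.4 and 71.1 CPM against 66.1 and 60.1 CPM. Its log2 fold change was 0.25 ± 0.10 with an edgeR adjusted p of 0.321, and 0.18 without pool 1.

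Hspd1 and Hspe1 code for the mitochondrial chaperonin HSP60 and its lid HSP10, and share the promoter printed above. Hspd1 was at 250, 180 and 194 CPM in DBA/2J and 186 and 173 CPM in Gpnmb+, and Hspe1 at 63.7, 49.8 and 49.5 CPM and at 52.3 and 54.5 CPM. DBA/2J pool 1 was the highest pool for both, at 1.28 to 1.34 times the mean of DBA/2J pools 2 and 3, and the remaining pools lay close together. The log2 fold changes were 0.21 ± 0.16 and 0.02 ± 0.13 (edgeR adjusted p = 0.562 and 0.950), and 0.06 and -0.11 without pool 1. Of the windows of Hspd1 and Hspe1, 26.9% and 20.4% recur in other genes.

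Per length of annotated exons, in TPM, which divides counts by exon length and scales each library to 1000000, the genes spanned from a mean over the 5 pools of 4.11 TPM for Asns to 1156 TPM for Calr. By this length, the ER genes Calr, Pdia3, Hspa5 and Hsp90b1 and the cytosolic genes Hsp90ab1 and Hsp90aa1 held the first 6 places. Of the 30 genes, 18 were at or above 100 TPM. The length is the union of all annotated exons, which can be much longer than 1 transcript, and the order depends on it. For Hspa8 it was 8680 bases, where the canonical transcript of the annotation held 2295 overlapping 100-base windows, 1 from each base. Only Ddit3, Trib3 and Asns were under 10 TPM by this length. It was 5579 bases for Ddit3, against 880 such windows, and 12163 bases for Manf, against 2148, which lowers their values. The ranges over the 5 pools overlapped for 24 of 29 neighboring pairs, although within pools 12 of the 29 pairs kept the same order in all 5, Calr above Hsp90ab1 among them. The 5 gaps lay below Hsp90ab1, Hspd1, Sdf2l1, Hsph1 and Sesn2. Atf4, at 98.8 to 175 TPM, was far above the other 5 genes of its group. Of all counts, the 30 genes together took 0.893%, 0.761% and 0.854% in the DBA/2J libraries and 0.78% and 0.722% in the Gpnmb+ libraries.

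**Figure D4:**
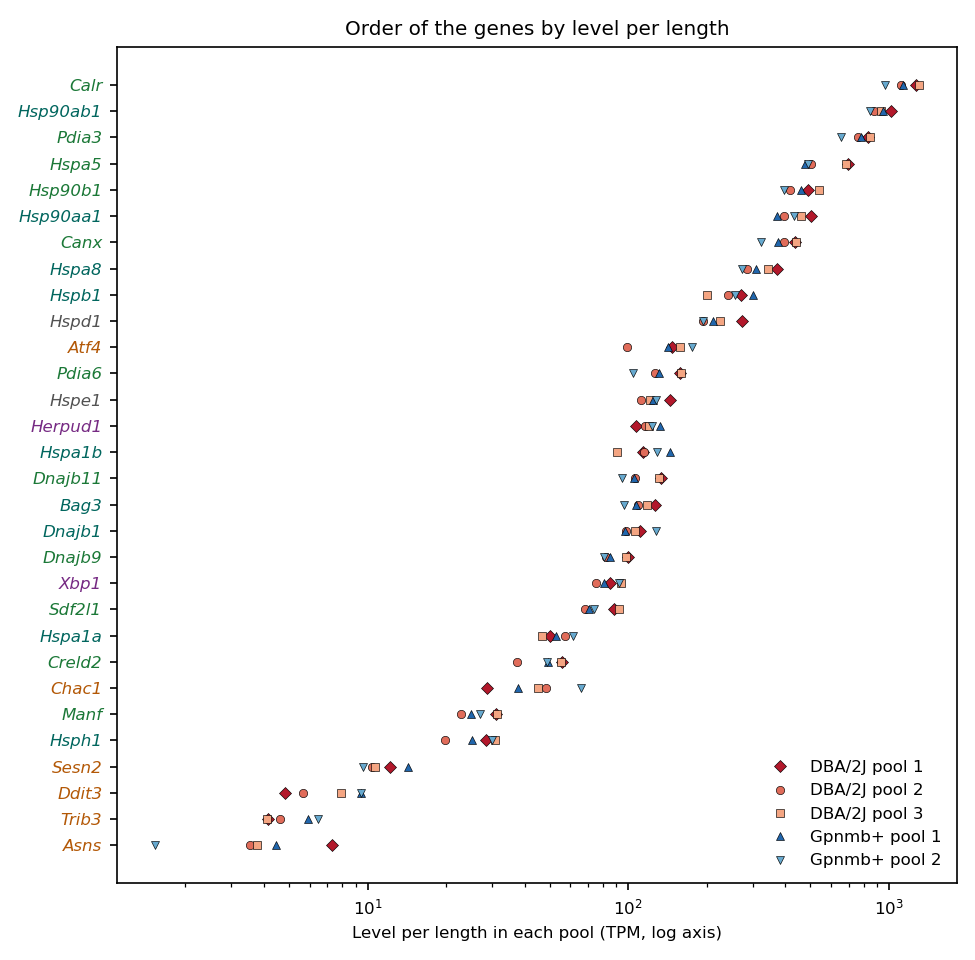
The 30 genes ordered by their mean level per exon length, in TPM on a log axis, with 1 point for each pool. Gene names are colored by group. Calr is highest at 962 to 1302 TPM, the ranges of most neighbors overlap, and Ddit3, Trib3 and Asns form the low end at 1.53 to 9.46 TPM.

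The other genes of the same pathways gave the same kind of result. Of 106 such genes in 6 lists, 105 were tested (all but Fgf21), and 0 were called by edgeR. At an unadjusted p of at most 0.05, 15 passed, 14 of them higher and 1 lower in DBA/2J, against 15.9% of all tested genes, a share near the background. DESeq2 and limma-voom each called 1 of them, Slc7a11. Without the fold minimum DESeq2 called 9 of the 105, all higher in DBA/2J, where it called 6.96% of all tested genes. Besides Slc7a11 these were Creb3l2, Hspa13, Sil1, Erlec1, Nupr1, Slc3a2, Ahsa1 and Ubb, a count added after the values were seen. The fitted log2 fold change was above 0 for 73 and below 0 for 32, with a median of 0.09. Without DBA/2J pool 1 these were 66 and 39, with a median of 0.03.

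All 9 genes of the list of unfolded protein response sensors, including Ern1 (IRE1), Eif2ak3 (PERK) and Atf6, had an interval within 1.5-fold, and the 2 with the largest difference were the ER-bound transcription factors Creb3l1 and Creb3l2, regulators of secretion and collagen export. Creb3l2 was at 149, 142 and 144 CPM in DBA/2J and 117 and 119 CPM in Gpnmb+, with little spread inside either genotype and a log2 fold change of 0.30 ± 0.07. Creb3l1 was at 25.9, 23.9 and 26.4 CPM and at 21.3 and 19.5 CPM, with one of 0.32 ± 0.10. The pools of each were separate, and neither passed edgeR's adjustment (adjusted p = 0.225 for Creb3l1 and 0.144 for Creb3l2). By DESeq2 the adjusted p was 0.097 for Creb3l1 and 0.00447 for Creb3l2, the latter below the fold minimum.

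Among 14 other ER folding genes, 11 were above 0 with a median of 0.13. Serpinh1, the collagen chaperone HSP47, was at 260, 205 and 268 CPM in DBA/2J and 205 and 176 CPM in Gpnmb+ (log2 fold change 0.36 ± 0.15), and Hspa13, an ER-associated HSP70-like protein, at 90.7, 84.6 and 84.4 CPM and at 70.9 and 67.7 CPM (0.32 ± 0.08). In Serpinh1 DBA/2J pool 2 met Gpnmb+ pool 1, whereas the pools of Hspa13 were well apart. Of 13 genes of ER-associated degradation and the translocon, 9 were above 0 with a median of 0.09. The largest differences there were those of Derl3, too sparse to read (-0.85 ± 0.75; DBA/2J counts 7, 9 and 21, Gpnmb+ counts 42 and 9), and of Erlec1, an ER lectin, at 0.29 ± 0.08.

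Slc7a11, the cystine transporter xCT and a target of ATF4 and NRF2, had the largest log2 fold change of the 105 genes. It was at 169, 172 and 117 CPM in DBA/2J and 58.3 and 37.5 CPM in Gpnmb+. Every DBA/2J pool was far above both Gpnmb+ pools. The log2 fold change was 1.67 ± 0.26, a fold of 3.19, and the edgeR adjusted p of 0.0543 narrowly missed the threshold, while DESeq2 and limma-voom called it. It was 1.59 without DBA/2J pool 1 (edgeR adjusted p = 0.165). Slc7a11 is also known from pigment cells, whose 6 markers summed to 3381 to 4468 CPM in DBA/2J and 3627 to 4238 CPM in Gpnmb+. Of these markers 2 were fitted above 0 and 4 below. Slc45a2 was at a mean of 3.16 CPM in DBA/2J against 17.4 CPM in Gpnmb+ (edgeR adjusted p = 0.0262), and Pmel at 146 against 250 CPM (adjusted p = 0.164). The part of pigment cells in the Slc7a11 result was not tested.

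The next largest of that list was Atf3, a stress-induced factor that is also an immediate early gene, at 137, 36.2 and 31.5 CPM in DBA/2J and 23.1 and 36.7 CPM in Gpnmb+. Its log2 fold change was 1.19 ± 0.69 with all pools and 0.18 without DBA/2J pool 1. Over the 26 tested genes of the other integrated stress response list, 16 were above 0 and 10 below, with a median of 0.09. Without DBA/2J pool 1 these were 12 and 14, with a median of -0.01. The median of the 6 genes above was below 0 both times, at -0.27 and -0.23. No test of the difference between the lists was made.

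In the remaining lists differences were small. Of 34 other cytosolic chaperones and heat shock factors, 22 were above 0 with a median of 0.10, and 30 had an interval within 1.5-fold. Those with the largest difference were Bag2, a cochaperone that restrains client ubiquitination, at 16.6, 20.1 and 15.0 CPM in DBA/2J and 19.1 and 27.9 CPM in Gpnmb+ (-0.45 ± 0.20), and Hsf4, a heat shock factor of the lens, at 2.52 to 3.38 CPM and 3.52 to 4.06 CPM (-0.32 ± 0.21). Of 9 other mitochondrial folding and protease genes, 7 were above 0 with a median of 0.06 and all 9 had an interval within 1.5-fold. Trap1, the mitochondrial HSP90, at 0.26 ± 0.12, and Hspa9, the mitochondrial HSP70, at 0.19 ± 0.11, differed most.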

How the data were processed

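RNA-seq of mouse iridocorneal angle pools was analysed from the table of raw gene counts that the authors deposited. The authors enriched mRNA, sequenced 100-base read pairs, trimmed them with fastp, aligned them to GRCm39 (Ensembl 110) with STAR and summed uniquely aligned reads per gene. DESeq2 is named for their own tests. Versions of fastp and STAR, the counting program and its strand setting are not given in the sources used here.

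The members and lists were chosen with earlier results of these data known. All 30 members are described, and of the pathway lists each called gene and the 2 with the largest absolute log2 fold change. The 19713 genes that reached 10 counts in any pool were fitted with edgeR 4.0.16 (R 4.3.3; TMM factors 0.975 to 1.02; quasi-likelihood test, no covariate), with Benjamini-Hochberg adjustment over all of them. A call needed an adjusted p of at most 0.05 and 1.5-fold. Tests were checked on simulated counts with changes larger than any fitted among the 30 genes. The check therefore does not cover changes of the size described here. DESeq2 1.42.0, limma 3.58.1 and ashr 2.2.63 gave alternatives. GENCODE M39 held 56323 of the 56941 identifiers and gave exon lengths, overlaps and starts; 24930 identifiers had no count. TPM used the union of annotated exons. Libraries correlated at 0.979 to 0.987 within and 0.967 to 0.979 between genotypes on the log2 CPM scale, and no 2 libraries were identical.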

Additional observations from a re-analysis of the deposited data

How the results depend on the processing

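No setting called a member past the adjusted threshold; with an unadjusted p in its place 1 was called (Ddit3). Of the other pathway genes 1 was called by DESeq2, by DESeq2 with ashr, by limma-voom, without the count filter and with a replicate block, 2 with an unadjusted p and 9 by DESeq2 without the fold minimum. All tested genes gave 157 calls, and 927 with DESeq2, 734 with ashr, 1373 with DESeq2 without the fold minimum (an alternative chosen after seeing the data), 360 without the count filter and 1710 with an unadjusted p; leaving out 1 pool gave 1 to 217 (6, 1 and 17 without DBA/2J pools 1, 2 and 3, 217 and 2 without Gpnmb+ pools 1 and 2). Members whose groups did not overlap numbered 12, 8 with library size as the only scaling, and 12 to 24 with 1 pool left out (20 without DBA/2J pool 2, 24 without Gpnmb+ pool 1), which leaves fewer pools to overlap. The median log2 fold change of the members stayed above 0, at 0.04 to 0.20. Of 390 fits of single members 373 kept their direction. Creld2 became -0.0041 without TMM and Hspe1 -0.02, and Xbp1 became 0.01 without the count filter. With 1 pool left out, Creld2 ranged from -0.08 to 0.18, Xbp1 from -0.11 to 0.09, Chac1 from -0.67 to 0.15, Sesn2 from -0.33 to 0.23, Hspa1a from -0.23 to 0.0045, Hsph1 from -0.17 to 0.11, Dnajb1 from -0.27 to 0.15 and Hspe1 from -0.11 to 0.09; the cause was not tested. Where 1 Gpnmb+ pool was left, it was assumed to vary like the DBA/2J pools.

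The pool numbers are names only. Deviations of same-numbered pools correlated at 0.279 and 0.254, and those of pools 1 and 2 across numbers at -0.279 and -0.254. DBA/2J pool 3 gave -0.052 and 0.052 with Gpnmb+ pools 1 and 2. The 2 Gpnmb+ pools deviate from their mean as mirror images, which fixes the opposite signs. These values are therefore not independent and cannot decide whether the pools were paired. With the replicate block 0 members and 220 of all tested genes were called, Creld2 was at -0.04 and Sesn2 at 0.0013.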
